A study of Mus musculus with 21 samples.

Results

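The genes described here are the parts of the cell cycle engine, the cyclins, their kinases, brakes, transcription factors and the machinery of replication and mitosis, compared between endothelial cells and cardiomyocytes of the E12.5 mouse heart. Members were taken by gene symbol: names starting with Ccna, Ccnb, Ccnd, Ccne, Cdkn, Aurk, Plk or Bub, or with Cdk, Cdc, E2f or Mcm and a digit, without Cdkn1c and the Cdk5rap genes. The rule took 107 of the 24421 genes in the count table. Of these, 80 fall into 13 lists by cell cycle phase or kinase class, and 27 carry such a name without a place in those lists, among them the GTPase Cdc42 and its partners. The rule used no measured value, but members and lists were chosen with earlier results of these data known.

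The study mapped where the cardiac transcription factor GATA4 sits in separate cell lineages of the embryonic ventricle, with open chromatin and RNA alongside. RNA, labelled polyA for both cell types, was counted per gene. That of endothelial cells (EC, n = 2) came from 60000 GFP+ cells per library, sorted from ventricles that carried Tie2Cre and the Cre-dependent Rosa26fsTrap reporter. That of cardiomyocytes (CM, n = 3) is labelled E12.5 cardiomyocytes, with the way of isolation not given in the sources used here. GATA4 was profiled by bioChIP, a streptavidin pull-down of GATA4 that is biotinylated only where Cre is active, with Tie2-Cre (n = 3) or Tnnt2-Cre (n = 3) and 15 to 20 ventricles per library. ATAC, which marks open chromatin, was run on 40000 Tie2Cre EC per library (n = 2). It was also run on 20000 GFP+ EC per library from embryos labelled Gata4 het (n = 3) or Gata4 ko (n = 3), where 1 mg of tamoxifen at E9.5 activated Cdh5(Pac)-CreERT2 and the Rosa26mTmG reporter. ATAC of cardiomyocytes (2 samples) is not analysed here. Tie2-Cre is known to be active in blood lineages as well as in endothelium and endocardium, and Tnnt2-Cre in cardiomyocytes. Nothing in the labels says whether libraries came from separate litters, so p-values measure the spread between these samples.

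A cell enters the cycle when D cyclins with Cdk4 or Cdk6, and then cyclin E with Cdk2, phosphorylate the retinoblastoma family and free E2F factors to switch on replication genes. Cyclin A and cyclin B with Cdk1 then carry the cell through G2 into mitosis, where Aurora and Polo kinases build the spindle, and Bub proteins and the anaphase-promoting complex (APC/C) time its exit. Cardiomyocytes and endothelial cells both divide in the heart at this stage. E2F sites, and the CHR element that is often found together with CCAAT boxes in mitotic genes, are the known promoter elements through which the pocket proteins and the DREAM and MuvB complexes time this programme.

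RNA depth was 21682362 and 27660790 counted reads in EC and 42948614 to 48393473 in CM. The summed endothelial markers (7 genes) reached 4880 to 4933 CPM (counts scaled by library size, as edgeR gives them) in EC and 623 to 719 in CM, and the 7 cardiomyocyte markers 336 to 354 CPM in EC and 48314 to 55333 in CM, in the direction of the labels. CM also held 4 embryonic blood markers at 3200, 2478 and 1380 CPM in replicates 1 to 3, against 18.4 to 23.2 in EC, while 3 globin genes were listed at 0 everywhere. The libraries differed in other RNA too: the ribosomal precursor Rn45s took 5.35% and 5.77% of EC counts and 0.118% to 0.2% of CM counts, and replication-dependent histone genes 0.0150% and 0.0162% of EC counts and 0.687% to 0.727% of CM counts. Tie2-Cre is not limited to endothelium, and the 6 leukocyte markers summed to 11.8 to 14.6 CPM in EC and 45.2 to 67.0 in CM, with 4 of 6 higher in EC and Lyz2 higher in CM. Of 7 epicardial and fibroblast markers, 3 were higher in EC (Col1a1, Pdgfra and Tcf21) and 4 in CM (Tbx18, Dcn, Wt1 and Upk3b), with sums of 544 to 570 CPM in EC and 372 to 391 in CM. Of 3 mural markers, Pdgfrb was higher in EC and Cspg4 in CM, with sums of 173 to 177 CPM in EC and 77.3 to 79.3 in CM. The EC and CM libraries also carry different name patterns in the counts. Cell type therefore cannot be told apart from a possible difference in preparation or sequencing run. The part of these differences in the results below was not tested. In bulk RNA, fewer cells in a phase and less RNA per cell cannot be told apart.

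Of the 107 members, 100 passed the filter on low counts and 79 differed between EC and CM: 44 were higher in EC and 35 in CM (edgeR quasi-likelihood test, Benjamini-Hochberg adjusted p under 0.05). That is 79.0% of the members, beside 77.8% of all 14851 genes tested, of which 37.5% were called toward EC and 40.2% toward CM, so the number of differences is near the background. At least a 2-fold difference was seen in 21 members higher in EC, beside 22.2% of all genes, and in 12 higher in CM, beside 22.6%, which makes 33.0% of the members and 44.8% of all genes. The EC and CM libraries did not overlap for 90 members, beside 85.3% of all genes. The 7 members not tested were Cdkn2a, Cdk15, Cdk5r2, Aurkc, Cdc20b, Ccnb1ip1 and Plk5.

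The lists, chosen with earlier results of these data known, did not share one direction. In the lists of G1 cyclins, cyclin E and E2F factors, 15 of 18 genes were higher in EC and 3 in CM, with a median log2 difference (EC minus CM) of 0.80. The 15 were all 8 E2F genes, 4 of the 5 in the G1 cyclin list and 3 of the 5 in the cyclin E list. CDK inhibitors were not part of this set. In the lists of G2/M cyclins, mitotic kinases and spindle genes, 5 of 23 genes tested were higher in EC, 12 were higher in CM and 6 did not pass, with a median of −0.38. Over all genes tested the median was −0.06, with 37.5% called toward EC and 40.2% toward CM. At least a 2-fold difference was seen in 8 of the 18 toward EC and 1 toward CM. Of the 23 it was seen in 1 toward EC and 5 toward CM, the latter including the scarce Ccna1 and Ccnb3. All genes had 22.2% and 22.6%. The S phase list lay between the G1 and mitotic lists, with 4 higher in each direction, 4 not called and a median of 0.08.

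**Figure D1:**
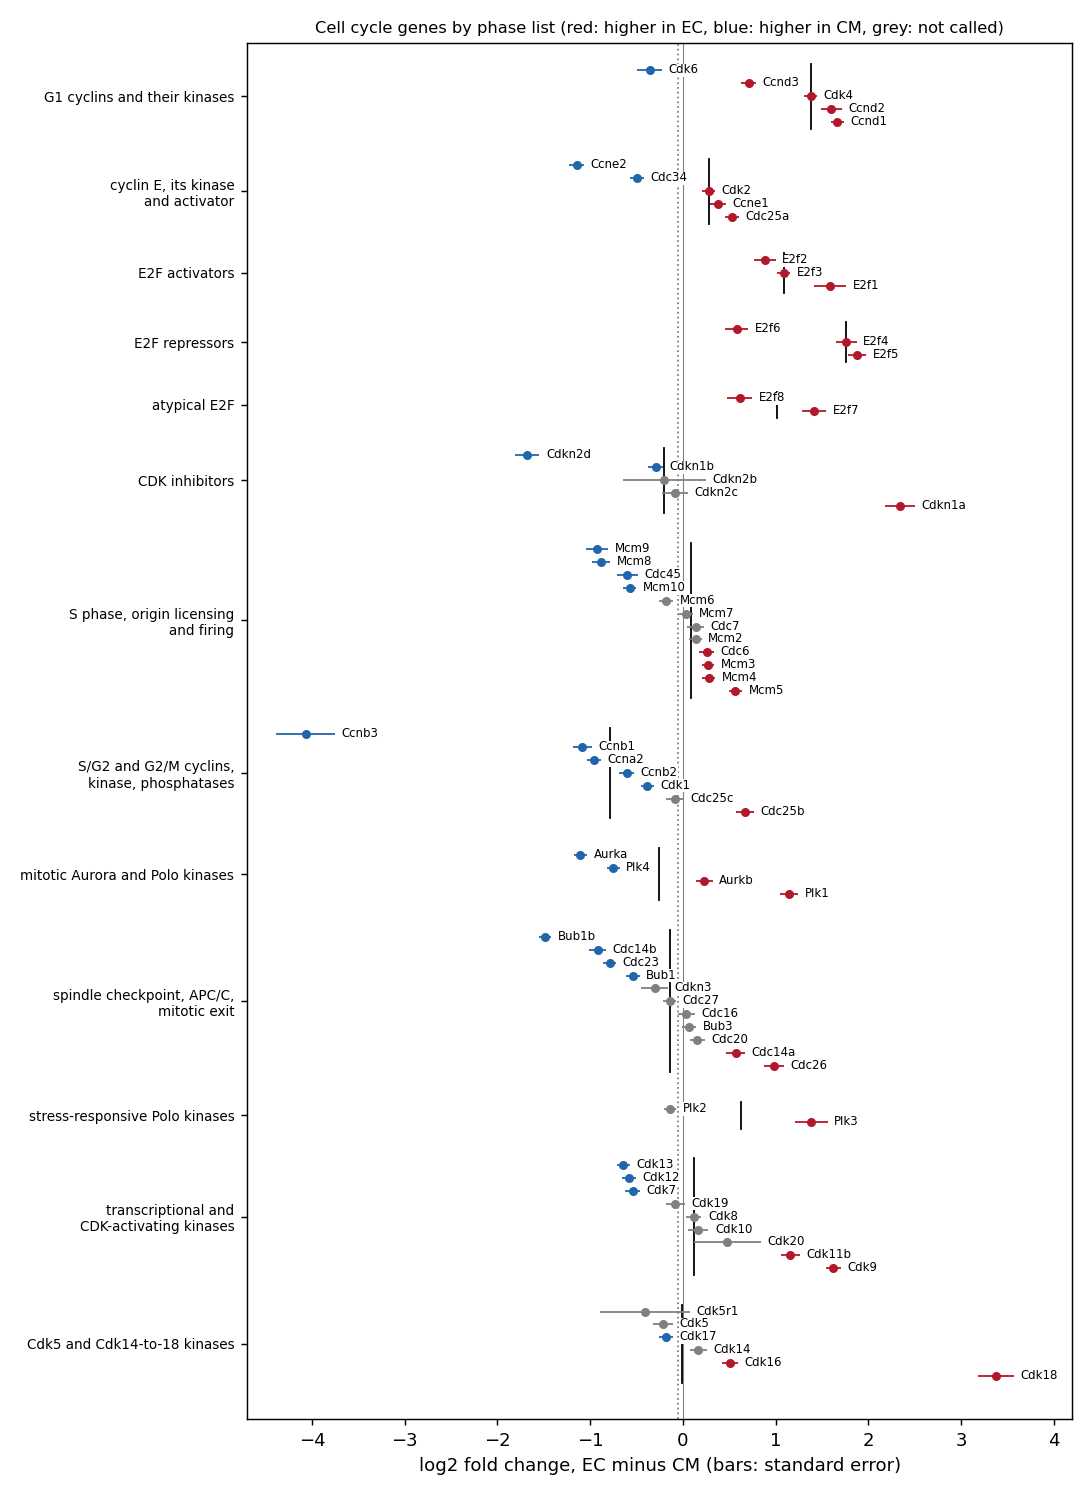
Log2 fold change of RNA (EC minus CM, horizontal axis) of the tested genes in the 13 lists, with bars for the standard error, a black line at the median of each list and a dotted line at the median of all genes (−0.06); Ccna1, listed at 0 in EC, is left out. Points of the E2F lists and the D cyclins lie right of 0, while most called points of the G2/M list lie left of it.

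The promoters of these lists also differed in their elements, searched on both strands in the RefSeq windows of GRCm38.p6 that span 250 bases before to 50 bases after a gene's start. A window was given for 90 of the 107 members. The CHR (TTTGAA or TTCGAA) was found in 10 of the 20 mitotic genes with a window (50%), beside 13.3% of the tested genes with a window and 19.5% of all 27025 windows, and each of these 10 also held CCAAT, a pair found in 5.66% of tested genes. The S phase genes held the CHR too, in 4 of 11 (36.4%), and 3 of them with CCAAT (27.3%). None of those 20 held an E2F word (TTTCCCGC, TTTGGCGC, TTCCCGCC or GGCGGGAA; some of these overlap), which 6 of 11 S phase genes did (54.5%), beside 6.21% of tested genes. Such a word was also found in 2 of 3 E2F activators, 2 of 4 cyclin E list genes, 1 of 2 atypical E2F genes and 1 of 6 CDK inhibitors. It was found in 0 of 3 genes of the G1 cyclin list with a window. CCAAT was found in 16 of the 20 mitotic genes (80.0%) and in 9 of the 11 S phase genes (81.8%), beside 38.2% of tested genes. A match is a description of letters, not of a bound site.

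Stretches of 30 bases with the CHR in capitals are shown for the mitotic genes with the smallest adjusted p among those that hold one, because genes higher in CM (Bub1b, Aurka, Ccnb2, Bub1) and genes higher in EC (Plk1, Cdc25b) hold the same element close to the start. They lie at chr2:118598231-118598260 (Bub1b, plus strand), chr2:172370521-172370550 (Aurka, minus), chr9:70421533-70421562 (Ccnb2, minus), chr2:127831828-127831857 (Bub1, minus), chr7:122159453-122159482 (Plk1, plus) and chr2:131186943-131186972 (Cdc25b, plus).
Bub1b: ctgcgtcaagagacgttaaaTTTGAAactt
Aurka: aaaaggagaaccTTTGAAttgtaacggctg
Ccnb2: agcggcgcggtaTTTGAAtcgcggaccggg
Bub1: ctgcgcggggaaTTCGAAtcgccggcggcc
Plk1: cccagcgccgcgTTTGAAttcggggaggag
Cdc25b: ccgctgttatttTTCGAAtatataaggagg

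The E2F word, again in capitals and read 5′ to 3′ on the gene's strand, is shown for 4 S phase genes, with Mcm5, Mcm3 and Cdc6 called toward EC and Mcm8 toward CM. They lie at chr8:75109349-75109378 (Mcm5, plus), chr1:20820276-20820305 (Mcm3, minus), chr11:98908002-98908031 (Cdc6, plus) and chr2:132816161-132816190 (Mcm8, plus).
Mcm5: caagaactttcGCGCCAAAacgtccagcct
Mcm3: taaacttccgtGGCGGGAAaacttgggaag
Cdc6: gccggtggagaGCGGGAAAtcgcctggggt
Mcm8: gcagaagcgcgtcatagacGCGCCAAAaaa
In both sets, some genes of opposite direction hold the same word. Of the other mitotic genes with the CHR, Cdk1 was higher in CM, and Bub3, Cdc20 and Cdkn3 were not called. Whether the words go with the direction of RNA was not tested.

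The D cyclins and Cdk4, which start the cycle in response to growth signals, were higher in EC. Ccnd1 (chr7:144929931-144939925, mm10) stood at 313 and 320 CPM in EC and at 99.2, 105 and 95.7 CPM in CM. Ccnd2 (chr6:127125709-127151048) stood at 862 and 852 CPM in EC and at 232, 305 and 313 CPM in CM. Both EC libraries lay far above the 3 CM libraries for both genes, with log2 differences of 1.66 (SE 0.07, adjusted p = 3.8e-09) and 1.6 (SE 0.11, adjusted p = 2.55e-07). Ccnd1 shares 20 bases with the microRNA gene Mir3962 on the same strand. Ccnd3 was at 257 and 255 CPM in EC and at 147, 151 and 172 CPM in CM, a log2 difference of 0.71 (SE 0.08, adjusted p = 1.09e-05). Cdk4 (chr10:127063603-127067282), the kinase partner of the D cyclins, was at 367 and 347 CPM in EC and at 141, 134 and 138 CPM in CM, a log2 difference of 1.38 (SE 0.07, adjusted p = 1.33e-08). The other kinase partner did not follow. Cdk6 was at 13.1 and 15.4 CPM in EC and at 16.5, 17.2 and 21.0 CPM in CM, a small difference toward CM (log2 −0.36, SE 0.14, adjusted p = 0.0335) whose adjusted p was 0.196 without EC replicate 1, 0.0506 without CM replicate 2, 0.113 without CM replicate 3, 0.112 with the replicate block and 0.0533 with library totals as the scaling.

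Per kilobase of exon (RPKM), Cdk4 was the most abundant gene of the list in both cell types, at 265 ± 10.2 RPKM in the 2 EC libraries (mean ± SD) and 102 ± 2.78 RPKM in the 3 CM libraries. Among the D cyclins the makeup differed as well as the level. Ccnd2 made up 43.0% ± 0.260 of the D cyclin RPKM in EC and 33.8% ± 2.84 in CM, while Ccnd3 made up 32.8% ± 0.154 in EC and 47.9% ± 2.28 in CM. Cdk4 made up 77.2% ± 0.0305 of the RPKM of Cdk1, Cdk2, Cdk4 and Cdk6 together in EC and 53.4% ± 0.478 in CM, and Cdk1 13.3% ± 0.466 and 31.2% ± 0.396. The EC and CM libraries did not overlap in any of these shares. With 2 libraries against 3 a two-sided exact rank test cannot go below p = 0.2, so no test is given for them.

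**Figure D2:**
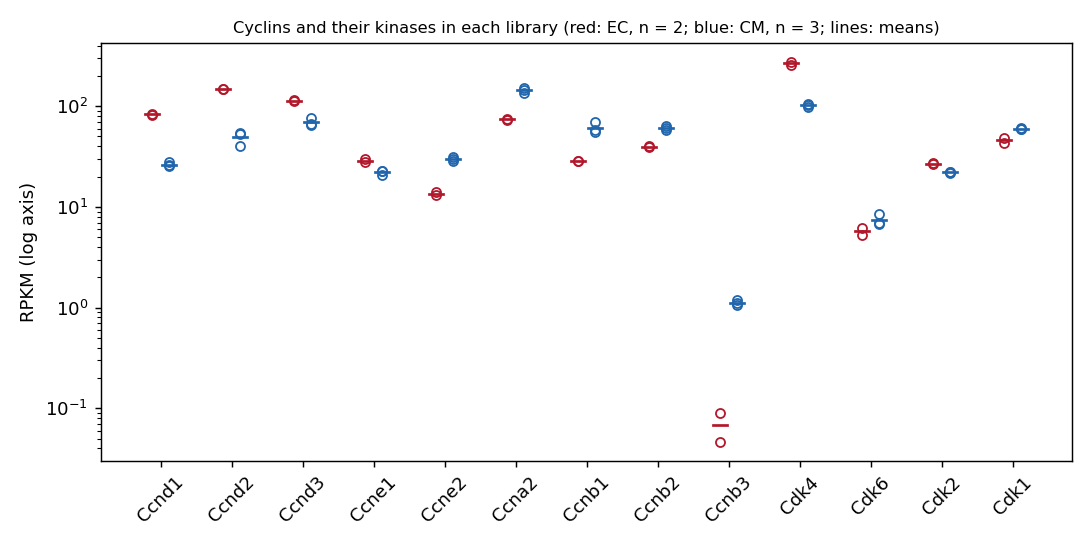
RPKM (log axis) of the D, E, A and B cyclins and their kinases in each EC (red, n = 2) and CM (blue, n = 3) library, with lines at the means; Ccna1, at 0 in EC, is not shown. The D cyclins and Cdk4 lie higher in EC, Ccne2 and the A and B cyclins higher in CM, and Ccnb3 is far below the others in both.

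The cyclin E pair, which drives entry into S phase with Cdk2, split between the cell types. Ccne1 was at 57.8 and 54.2 CPM in EC and at 44.6, 44.3 and 40.4 CPM in CM, a log2 difference of 0.38 (SE 0.08, adjusted p = 0.00155). Ccne2 went the other way, with 41.9 and 45.1 CPM in EC and 102, 95.4 and 91.7 CPM in CM, a log2 difference of −1.15 (SE 0.08, adjusted p = 2.89e-07). The leading cyclin E gene therefore differed: Ccne1 made up 67.9% ± 2.18 of the cyclin E RPKM in EC and 42.4% ± 0.755 in CM. Cdk2 was at 65.7 and 64.2 CPM in EC and at 54.4, 53.0 and 53.5 CPM in CM, a small difference toward EC (log2 0.28, SE 0.07, adjusted p = 0.00485). The phosphatase Cdc25a, which removes the inhibitory phosphate from Cdk2, was higher in EC (0.53), at 88.9 and 81.2 CPM against 57.6, 61.3 and 58.4 CPM in CM. The ubiquitin-conjugating enzyme Cdc34, which works with SCF ligases, was higher in CM (−0.50), at 61.2, 61.7 and 60.2 CPM against 42.4 and 44.1 CPM in EC.

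All 8 E2F genes were higher in EC, with log2 differences from 0.58 (E2f6) to 1.88 (E2f5) and a median of 1.25, and 5 of them reached 2-fold. The activators E2f1, E2f2 and E2f3 turn on replication genes. E2f1 was at 21.3 and 21.7 CPM in EC and at 5.72, 6.64 and 9.11 CPM in CM (log2 1.59, SE 0.17, adjusted p = 8.8e-06). E2f3 was at 90.1 and 95.3 CPM in EC and at 43.7, 43.6 and 43.6 CPM in CM (1.09, SE 0.07, adjusted p = 1.42e-07), and E2f2 at 22.8 and 19.7 CPM in EC and at 10.7, 11.6 and 12.2 CPM in CM (0.88). E2f4 and E2f5, which repress their targets together with pocket proteins, differed the most. E2f4 (chr8:105297663-105305370) was at 53.3 and 49.8 CPM in EC and at 13.3, 15.2 and 17.0 CPM in CM (1.76, SE 0.11, adjusted p = 9.41e-08). E2f5 (chr3:14578671-14606309) was at 53.6 and 51.3 CPM in EC and at 15.5, 14.2 and 13.1 CPM in CM (1.88, SE 0.10, adjusted p = 2.15e-08). The atypical repressors E2f7 and E2f8, which bind DNA without a DP partner, were higher as well. E2f7 was at 44.7 and 42.1 CPM in EC and at 14.2, 15.1 and 19.6 CPM in CM (1.41), and E2f8 at 52.1 and 50.8 CPM in EC and at 27.7, 32.7 and 40.7 CPM in CM (0.61). No EC library overlapped a CM library for any of the 8, so activating and repressing members of the family lay on the same side. E2f6, at 63.9 and 61.4 CPM in EC and at 35.8, 39.8 and 50.4 CPM in CM, had the smallest difference of the 8, and its share of the repressor RPKM was 31.0% ± 0.251 in EC and 51.3% ± 4.01 in CM.

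The CDK inhibitors, the brakes of the cycle, did not move as a group: of 6, 1 was higher in EC, 2 in CM, 2 did not pass and Cdkn2a, with 1 read in all, was not tested. Cdkn1a (p21; chr17:29090986-29100722), a p53 target that stops the cycle after stress and on differentiation, was at 13.2 and 12.1 CPM in EC and at 2.29, 2.49 and 2.74 CPM in CM. Its log2 difference was 2.34 (SE 0.16, adjusted p = 1.89e-07). Cdkn2d (p19INK4d), an inhibitor of Cdk4 and Cdk6, was at 11.4 and 8.47 CPM in EC and at 32.8, 30.2 and 33.0 CPM in CM (−1.68, SE 0.13, adjusted p = 6.22e-07). These lay clear of overlap in opposite directions. Cdkn1b (p27) was at 50.4 and 44.7 CPM in EC and at 58.6, 58.1 and 58.3 CPM in CM (−0.29, SE 0.08, adjusted p = 0.00684), a call that was lost without EC replicate 2 (adjusted p = 0.0525). Cdkn2c (p18) was at 13.6 and 14.9 CPM in EC and at 13.4, 14.3 and 17.6 CPM in CM, and Cdkn2b (p15) at 0.780 and 0.362 CPM in EC and at 0.749, 0.682 and 0.583 CPM in CM. Neither passed, and their libraries overlapped. Cdkn1c is outside the name rule, so shares are of these 6 genes alone. Among them Cdkn1b led per length in EC, at 48.7% ± 0.0123 of their summed RPKM. In CM, Cdkn2d (43.5% ± 1.12) and Cdkn1b (42.0% ± 1.31) were close. Cdkn1a made up 15.4% ± 0.381 in EC and 2.14% ± 0.162 in CM.

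**Figure D3:**
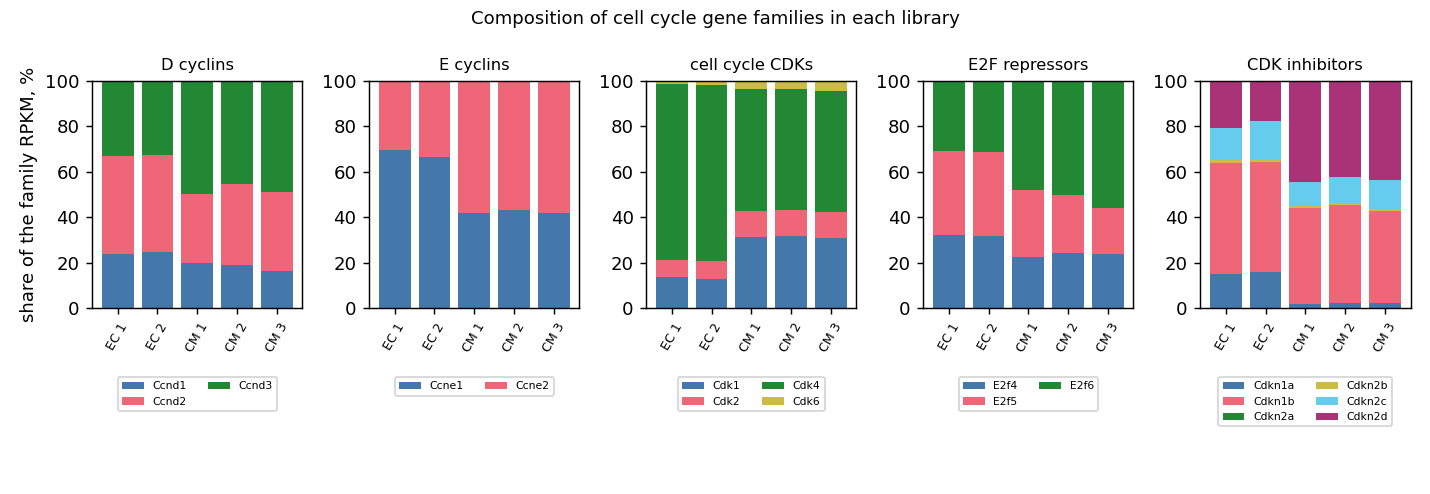
Stacked bars of each gene's share of its family's summed RPKM (%, vertical axis from 0 to 100) in the 2 EC and 3 CM libraries, for D cyclins, E cyclins, the kinases Cdk1, Cdk2, Cdk4 and Cdk6, E2F repressors and CDK inhibitors (without Cdkn1c). Ccne1 takes the larger part of the E cyclins in EC and the smaller part in CM, and among the inhibitors Cdkn1a takes a larger part in EC and Cdkn2d a larger part in CM.

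Of the 12 S phase members, 8 were called and none differed by 2-fold, whereas some replication genes outside the name rule, such as Pcna, did and are given further on. For Mcm2 to Mcm7, the 6 subunits of the ring that unwinds DNA, the log2 differences ran from −0.18 (Mcm6) to 0.57 (Mcm5). Mcm5 was at 178 and 164 CPM in EC and at 121, 115 and 111 CPM in CM (SE 0.07, adjusted p = 3.38e-05). Mcm6, the most abundant of the list per length at 88.1 ± 5.27 RPKM in EC and 100 ± 6.24 RPKM in CM, was at 266 and 245 CPM in EC and at 309, 289 and 273 CPM in CM. It missed the threshold (adjusted p = 0.0502) and passed with another scaling (RLE, adjusted p = 0.0479), with DESeq2 (0.0286) and with the replicate block (0.0133). Mcm6 also passed with no filter on low counts, without CM replicate 3, and without Rn45s, histone and small RNA genes. Mcm3 was at 241 and 249 CPM in EC and at 203, 205 and 201 CPM in CM (0.27), and Mcm4 at 245 and 228 CPM in EC and at 193, 200 and 191 CPM in CM (0.28), the latter not called without EC replicate 1 (adjusted p = 0.0545). Mcm2 (0.14) passed with library totals as the scaling alone (0.032), and Mcm7 (0.03) did not pass. Cdc6, which loads the ring at origins, was higher in EC by 0.26, a call lost without EC replicate 2 (adjusted p = 0.0694) and without CM replicate 2 (0.0532).

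The 4 S phase genes higher in CM were Mcm8, Mcm9, Mcm10 and Cdc45. Mcm9 was at 9.29 and 10.6 CPM in EC and at 17.9, 19.4 and 19.3 CPM in CM, and Mcm8, its partner in a repair helicase, at 17.8 and 16.3 CPM in EC and at 30.4, 32.1 and 31.8 CPM in CM. Their log2 differences were −0.92 (SE 0.12, adjusted p = 3.25e-05) and −0.88 (SE 0.10, adjusted p = 9.46e-06). Cdc45, which completes the active helicase, was at 31.2 and 41.2 CPM in EC and at 56.6, 55.5 and 52.1 CPM in CM (−0.60, SE 0.11, adjusted p = 0.000601), and the firing factor Mcm10 differed by −0.58. Cdc7, the kinase that fires origins, did not pass (0.14, adjusted p = 0.208). Histone RNA took 0.0150% and 0.0162% of EC counts and at least 0.687% of CM counts, while Rn45s differed the other way. Whether the cells or the library preparation set these shares cannot be told apart. The part of histone RNA in the S phase list was not tested.

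The cyclins of S, G2 and mitosis were higher in CM. Ccna2 (chr3:36564865-36571996), the A cyclin of dividing body cells, was at 209 and 205 CPM in EC and at 423, 377 and 407 CPM in CM (log2 −0.96, SE 0.08, adjusted p = 6.02e-07). Ccnb1 (chr13:100778739-100786486), the main partner of Cdk1 in mitosis, was at 66.6 and 66.6 CPM in EC and at 161, 129 and 134 CPM in CM (−1.09, SE 0.10, adjusted p = 2.36e-06). Ccnb2 was at 62.3 and 60.2 CPM in EC and at 98.4, 88.3 and 93.1 CPM in CM (−0.61, SE 0.08, adjusted p = 3.31e-05). For all of them each CM library lay above both EC libraries. Cdk1 itself differed less, with 138 and 124 CPM in EC and 173, 170 and 170 CPM in CM (−0.38, SE 0.07, adjusted p = 0.000604).

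The cyclins best known from germ cells were scarce and also higher in CM. Ccnb3 was at 0.213 and 0.407 CPM in EC and at 4.83, 5.06 and 5.36 CPM in CM (−4.07, SE 0.31, adjusted p = 5.07e-07). Ccna1 had no read in EC and 75 reads over the CM libraries, at least 9.31-fold higher in CM against a floor of 3 counts over the EC group. The phosphatases that activate Cdk1 did not follow the cyclins: Cdc25b was higher in EC (0.67), at 43.6 and 39.6 CPM against 26.2, 23.9 and 28.5 CPM in CM (SE 0.10, adjusted p = 0.000106), and Cdc25c did not pass (−0.09, adjusted p = 0.443). Of the 8 genes of this list, 6 were higher in CM, 1 was higher in EC and 1 did not pass, with a median of −0.78. That median is set by Ccna2 and Ccnb2 and is the same with Ccna1 at its bound.

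The balance of G1 and G2/M cyclins within a library turned around between the cell types. The summed RPKM of the 3 D cyclins was 2.43 ± 0.0288 times that of Ccna2, Ccnb1 and Ccnb2 in EC (mean ± SD of 2 libraries) and 0.550 ± 0.0750 times in CM (3 libraries). The ratio of Cdk4 to Cdk1 RPKM was 5.80 ± 0.205 in EC and 1.71 ± 0.0324 in CM. Such ratios within a library do not depend on the scaling between libraries.

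Mitotic kinases went in both directions. Aurka (chr2:172356190-172370570), which matures centrosomes, was at 52.2 and 50.7 CPM in EC and at 111, 110 and 112 CPM in CM (−1.11, SE 0.07, adjusted p = 1.37e-07). Plk1 (chr7:122159437-122169875), which acts with Aurka at centrosomes and at mitotic entry, was at 96.1 and 99.7 CPM in EC and at 39.5, 43.2 and 50.2 CPM in CM (1.14, SE 0.10, adjusted p = 1.29e-06). The ratio of Plk1 to Aurka RPKM was 1.71 ± 0.0806 in EC and 0.358 ± 0.0422 in CM. Plk4, which starts centriole duplication, was at 77.2 and 79.1 CPM in EC and at 128, 135 and 132 CPM in CM (−0.75, SE 0.07, adjusted p = 2.77e-06). Aurkb, the kinase of the chromosomal passenger complex, was at 52.6 and 44.2 CPM in EC and at 41.9, 40.2 and 41.9 CPM in CM. Its call toward EC (0.23, adjusted p = 0.0391) was lost with DESeq2 (0.0612), with no filter on low counts (0.0996), without EC replicate 1 (0.428), without CM replicate 2 (0.126) and without Rn45s, histone and small RNA genes (0.051). Aurkc, the germ cell Aurora kinase, was at 0 in every library.

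In the list of the spindle checkpoint, the APC/C and mitotic exit, 4 of 11 genes were higher in CM, 2 were higher in EC and 5 did not pass. Bub1b (BubR1; chr2:118598211-118641592), the checkpoint protein that restrains the APC/C, was at 132 and 131 CPM in EC and at 373, 370 and 363 CPM in CM (−1.49, SE 0.07, adjusted p = 8.23e-09). It was also the most abundant of the list per length in CM, at 101 ± 1.41 RPKM, against 35.8 ± 0.167 RPKM in EC, where Cdc16 led at 55.6 ± 0.391 RPKM. The checkpoint kinase Bub1 was at 81.3 and 80.0 CPM in EC and at 125, 113 and 114 CPM in CM (−0.54), while Bub3, their shared partner, was at 103 and 102 CPM in EC and at 104, 92.6 and 95.7 CPM in CM and did not pass.

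APC/C subunits of the same complex lay on both sides. Cdc23 was at 124 and 129 CPM in EC and at 224, 211 and 219 CPM in CM (−0.79, SE 0.07, adjusted p = 1.56e-06), and Cdc26 at 38.2 and 42.1 CPM in EC and at 22.8, 19.9 and 18.2 CPM in CM (0.98, SE 0.11, adjusted p = 1.05e-05). Cdc16 (0.04) and Cdc27 (−0.14) did not pass, though Cdc27 did with no filter on low counts and without CM replicate 1. The coactivator Cdc20 did not pass either (0.16, adjusted p = 0.0822). It passed without CM replicate 1 (adjusted p = 0.0435) and with library totals (0.0327). Of the exit phosphatases, Cdc14a was at 34.2 and 31.8 CPM in EC and at 22.4, 23.9 and 20.4 CPM in CM (0.57), and Cdc14b at 24.9 and 23.1 CPM in EC and at 47.8, 43.3 and 45.3 CPM in CM (−0.92). The phosphatase Cdkn3 did not pass (−0.30, adjusted p = 0.0785) and did without EC replicate 2 (0.0365) or CM replicate 1 (0.0484).

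The blood markers, and most called genes of the mitotic lists, were higher in CM than in EC. Within CM the blood markers were at 3200, 2478 and 1380 CPM in replicates 1 to 3. In the same order, Ccna2 was at 423, 377 and 407 CPM, Bub1b at 373, 370 and 363 CPM and Aurka at 111, 110 and 112 CPM. Ccnb1 was at 161, 129 and 134 CPM, and Bub1 at 125, 113 and 114 CPM. Plk1, which was higher in EC, was at 39.5, 43.2 and 50.2 CPM. These genes are only a part of the mitotic lists. The part of blood RNA in the difference between EC and CM was not tested.

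Kinases of the same families that work outside the division cycle were measured too. Plk2, a stress-responsive Polo kinase, was the most abundant Polo gene per length, at 130 ± 1.02 RPKM in EC and 143 ± 3.14 RPKM in CM. At 363 and 367 CPM in EC and 395, 397 and 411 CPM in CM it did not pass (−0.14, adjusted p = 0.0825), though it did with DESeq2 (0.038) and with no filter on low counts (0.0413). Plk3 was at 10.3 and 11.1 CPM in EC and at 3.54, 4.94 and 3.81 CPM in CM (1.38, SE 0.18, adjusted p = 3.11e-05).

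Among the 9 kinases of transcription and CDK activation, 2 were higher in EC and 3 in CM. Cdk9, which releases paused RNA polymerase II, was at 59.6 and 56.5 CPM in EC and at 18.7, 19.2 and 18.8 CPM in CM (1.62, SE 0.08, adjusted p = 1.75e-08). Cdk11b, linked to splicing and the highest of the list per length in both cell types (63.1 ± 3.20 RPKM in EC and 28.3 ± 3.62 in CM), was at 157 and 169 CPM in EC and at 63.5, 82.3 and 74.0 CPM in CM (1.16). Cdk13 (98.4 and 96.1 CPM in EC; 152, 150 and 153 CPM in CM) and Cdk12 (90.0 and 90.8 CPM; 132, 132 and 142 CPM), kinases of transcript elongation, differed by −0.64 and −0.58. Cdk7, the CDK-activating kinase, was at 49.2 and 52.0 CPM in EC and at 77.4, 74.0 and 69.2 CPM in CM (−0.54).

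In the list of Cdk5 and its relatives, Cdk18 was 10.4-fold higher in EC, at 15.3 and 14.9 CPM against 1.14, 1.44 and 1.80 CPM in CM (3.38, SE 0.19, adjusted p = 4.23e-08). Cdk16, the highest of the list per length at 41.0 ± 1.75 RPKM in EC and 28.8 ± 2.94 RPKM in CM, was at 128 and 121 CPM in EC and at 81.5, 83.7 and 97.9 CPM in CM (0.51). Cdk17 was at 88.5 and 88.9 CPM in EC and at 105, 96.2 and 101 CPM in CM. Its small difference (−0.18, adjusted p = 0.0394) was lost when any library was left out (adjusted p from 0.0537 to 0.107), and with upper quartile scaling (0.0543), library totals (0.112) and the replicate block (0.0746). The Cdk5 activator Cdk5r1 did not pass (−0.41, adjusted p = 0.458). Its value rested on single EC libraries, which stood at 2.94 and 0.498 CPM: without EC replicate 1 it was −2.25 (adjusted p = 0.00108), and without EC replicate 2 it was 0.30 (0.322).

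The regulators around the engine, taken from 6 fixed lists of which 74 of 75 genes were in the table, showed no common direction: 28 were higher in EC, 32 in CM and 14 did not pass, with a median of −0.07. In the list of pocket proteins and their complexes, 6 were higher in each direction. Rb1, Rbl1 and Rbl2, the pocket proteins that hold E2F in check, were higher in CM (−0.91, −0.67 and −1.08), as were the MuvB subunits Lin54 and Lin9 (both −1.22). Tfdp1, the DNA-binding partner of E2F, was higher in EC (0.74), with Foxm1, an activator of mitotic genes (1.17), and Lin37 (1.56). Foxm1 was at 66.4 and 71.4 CPM in EC and at 24.8, 28.9 and 38.3 CPM in CM, opposite to Ccnb1, Aurka and Bub1b and in the direction of Plk1.

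Among brakes and partners of the kinases, 5 of 9 were higher in EC and 2 in CM. Trp53 was at 104 and 102 CPM in EC and at 9.41, 9.44 and 10.9 CPM in CM (3.37, SE 0.09, adjusted p = 1.78e-10), in the direction of its target Cdkn1a. Mdm2, another p53 target, did not pass (−0.14, adjusted p = 0.0832). Skp2 (1.28) and Ccnf (1.04), both F-box proteins, were higher in EC, while Cks2, a small CDK subunit (−1.56), and Wee1, the kinase that holds back Cdk1 (−0.59), were higher in CM.

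Of the 13 genes of origin recognition and GINS, 3 were higher in EC and 7 in CM. By adjusted p the first on the CM side were Orc4 (−1.51), the licensing inhibitor Gmnn (−1.18) and Orc3 (−0.89), with Gins2 (0.46), Orc6 (0.36) and Orc1 (0.50) on the EC side. Of the 15 genes of the replication fork and nucleotide supply, 5 were higher in EC and 7 in CM. Pcna, the sliding clamp, was at 130 and 126 CPM in EC and at 270, 266 and 264 CPM in CM (−1.06), with Rfc4 (−0.80) and Pola1 (−0.53) alongside, and Lig1 (1.23), Tyms (0.87) and Tk1 (1.02) were higher in EC.

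Of the 12 APC/C genes outside the name rule, 5 were called in each direction, from Anapc2 (2.01), Anapc11 (0.73) and the coactivator Fzr1 (0.68) to Anapc13 (−1.33), Anapc10 (−0.74) and Anapc5 (−0.31). Of the 13 checkpoint, kinetochore and proliferation genes, 4 were higher in EC, among them Incenp (1.04), Cdca8 (0.58) and Tpx2 (0.53). In CM 5 were higher, among them Mad2l1 (−0.70), Nuf2 (−0.68) and Birc5 (−0.60). The other 4 did not pass, the median was 0.01, and 1 gene reached 2-fold toward EC and 0 toward CM. Incenp, Cdca8 and Birc5 code for partners of Aurkb in the passenger complex, so its members lay on both sides. Mki67, the gene of the Ki-67 antigen, was also higher in CM, at 731 and 775 CPM in EC and 1144, 1204 and 1396 CPM in CM (−0.73).

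**Figure D4:**
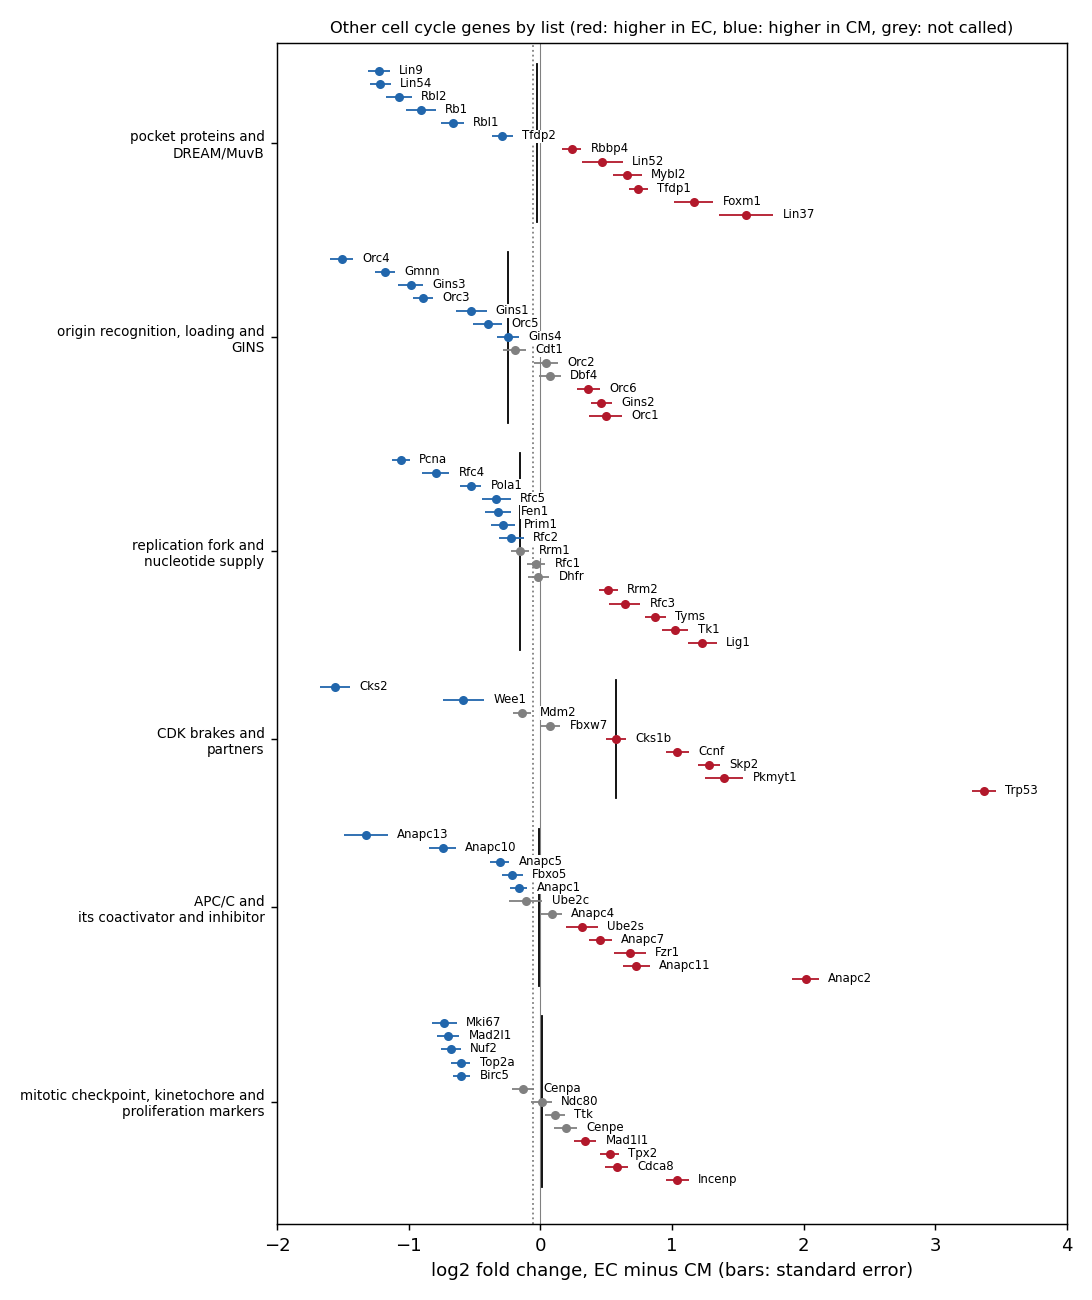
Log2 fold change of RNA (EC minus CM, horizontal axis) of the 74 genes of the 6 regulator lists, with bars for the standard error, a black line at each list's median and a dotted line at the median of all genes. Red (higher in EC) and blue (higher in CM) points appear in every list, and Trp53 lies farthest to the right at 3.37.

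Chromatin at the members was open in EC. A peak lay within 1 kb of the start in both Tie2Cre EC ATAC libraries for 101 of the 107 members, and for 97 of the 100 tested, beside 91.3% of all tested genes with a placed start. The start is the outermost exon end in the count table. The 6 members without such a pair of peaks were Aurkc, Ccnb1ip1, Ccnb3, Cdk3-ps, Cdkn1a and Plk5. Of these, Cdkn1a was expressed in EC, and 2 GATA4 regions within its gene, 3928 and 4524 bp from that start, overlapped peaks of both ATAC libraries. Neither met the rule of 2 libraries: the first had a GATA4 peak in 0 of 3 Tie2-Cre and 1 of 3 Tnnt2-Cre libraries, the second in 1 of 3 of each.

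Embryos labelled Gata4 ko had nearly the same set of open starts as those labelled Gata4 het. A peak was present in 3 of 3 libraries at 95 of the 100 tested members in het, beside 84.4% of tested genes, and at 96 in ko, beside 84.0%. No member had peaks in 3 of 3 libraries of one genotype and 0 of 3 of the other (0.0607% and 0.0405% of tested genes did, for het and ko). The number of libraries with a peak differed at Ccnd2, with 1 of 3 in het and 3 of 3 in ko, and at Plk5, with 0 and 1. Peak lists held 67201 to 90326 peaks in het and 55733 to 87496 in ko, so a peak missing from a list is no sign of closed chromatin.

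GATA4 peaks from Tie2-Cre lay within 1 kb of the start of 25 members in at least 2 of 3 libraries, 24 of the 100 tested, beside 17.5% of all tested genes. From Tnnt2-Cre there were 30, 29 of the 100 tested, beside 24.0%. Both lineages shared 20 of these starts, among them those of E2f5, Cdc25a, Mcm6, Mcm7, Aurka, Plk2 and Plk3. The list of 5 D cyclins and kinases had 1 such start, that of Cdk4 in Tnnt2-Cre, and the 3 activator E2F genes had none in either lineage. The starts of Bub1b, Ccnb1, Ccna2 and Ccnd1, which differed strongly in RNA, had none in 2 libraries of either lineage, and Cdk1 and Cdc25c met this count in Tnnt2-Cre but not in Tie2-Cre, where Cdk1 had a peak in 1 library and Cdc25c in none. In all 3 libraries a peak was found at Cdk12 for Tie2-Cre and at Cdk5r2 and Cdc123 for Tnnt2-Cre. The second library of each lineage held few peaks (2734 and 3603, against 17682 to 30447 in the others), and without replicate 1 or 3 the counts fell to 1 for Tie2-Cre, and to 3 and 2 for Tnnt2-Cre.

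GATA4 regions, those at starts included, were also assigned to the nearest start within 50 kb and called selective when present in at least 2 of 3 libraries of one lineage and 0 of 3 of the other. Tie2-Cre-selective regions were found at 16 members (15.0%, beside 13.8% of tested genes), Tnnt2-Cre-selective regions at 15 (14.0%, beside 21.2%), and shared regions at 25 (23.4%, beside 21.9%). Within 1 kb of the start lay 2 of the 16 Tie2-Cre-selective regions, 4 of the 17 Tnnt2-Cre-selective ones and 19 of the 30 shared ones, which repeat sites of the counts at starts. Peaks of both EC ATAC libraries overlapped 15 of the 16 Tie2-Cre-selective regions, 11 of the 17 Tnnt2-Cre-selective ones and 29 of the 30 shared ones. The share among all regions of each class was not counted. In all 3 classes, more of the members with a region were higher in EC than in CM. Of the 16 members with a Tie2-Cre-selective region 11 were higher in EC and 2 in CM (Cdc42se2 and Cdk17), beside 52.3% and 29.2% of tested genes with such a region. Of the 15 with a Tnnt2-Cre-selective region, also 11 were higher in EC, among them Cdk18, E2f3 and E2f8, and 2 in CM, beside 32.4% and 48.0%. These counts overlap, as Cdc42ep2, Cdc42ep4, Cdc123 and E2f8 held regions of both selective kinds. Of the 25 with a shared region, 14 were higher in EC and 3 in CM, beside 40.1% and 39.5%. The Tie2-Cre-selective regions at members higher in EC included chr10:127065843-127066333, within Cdk4 and 2240 bp from its start, chr8:105297562-105297901 over the start of E2f4, chr8:75103591-75103944 at 5565 bp from the start of Mcm5, and a region within Cdc42ep5 (856 bp from its start). Ccnd3 held a region shared by both lineages, chr17:47521613-47522277, within the gene at 16562 bp from its start, open in both EC ATAC libraries. No region of these 3 classes was assigned to Ccnd1, Ccnd2, Cdkn1a, Ccna2, Ccnb1, Bub1b or Plk1. The shared region at the start of Aurka was assigned to Cstf1, whose start is nearer.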

How the data were processed

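RNA counts per gene were deposited by the authors, made with featureCounts 1.6.3 on mm10 genes counting forward-stranded reads, per the file headers. The submitters' processing notes list, without roles, STAR 2.7.3a, Bowtie 1.1.1, deepTools 3.3.1, Bowtie2 2.2.9 and MACS2 2.2.4. Each ATAC and GATA4 library has its own peak list; a fold ratio over background and −log10 p and q values stand beside every peak, as deposited by the authors, and most peak names carry macs2. Replicates differed by more than sampling noise (a chi-square of 8.05 per degree of freedom for the EC pair, and of 14.1 to 35.7 for CM pairs).

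Counts of EC and CM were fitted with edgeR 4.0.16 in R 4.3.3 (filterByExpr, TMM, glmQLFit, glmQLFTest), with Benjamini-Hochberg adjustment over all 14851 genes tested and a threshold of 0.05. CPM and RPKM were computed from TMM-scaled totals and summed exon length. DESeq2 1.42.0, other scalings, no filter, a 2-fold test (glmTreat), a replicate block and leaving out each library were alternatives, as were stricter peaks, a 2 kb window and equal list length. The test was tried on simulated counts. Same-numbered EC and CM libraries did not deviate together (correlations −0.00515 and 0.000149), so numbers were not used as pairs. Peaks, promoters and figures used Python 3.11.15, numpy 2.4.6, pandas 2.3.3 and matplotlib 3.10.9. GATA4 regions are merged peaks; 294 genes without a single place were left out of start counts.

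The members and all lists were chosen with earlier results of these data known. Named with values in every library are all D, E, A and B cyclins, Cdk1, Cdk2, Cdk4, Cdk6 and the inhibitors, and in each list the gene highest per length and up to 3 called genes each way with at least 1 CPM; of the regulator lists, up to 3 called genes each way with the smallest adjusted p. Rb1, Rbl1, Mki67, Mdm2, Bub3, Aurkb, Cdk5r1, and the members in the text on GATA4 were added after their values were seen. Promoter windows were not used for Aurkaip1, Aurkb, Ccna2, Ccnd1, Ccnd2, Ccne2, Cdc23, Cdc25c, Cdc42bpg, Cdk17, Cdk19, Cdk3-ps, Cdk5, Cdk5r1, E2f4, E2f5 and Mcm4.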

Additional observations from a re-analysis of the deposited data

How the results depend on the processing

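Across scalings (RLE, upper quartile, library totals), DESeq2, no filter on low counts and leaving out Rn45s, histone and small RNA genes, 41 to 47 members were higher in EC and 33 to 39 in CM, and no called member changed direction in any alternative. Against a 2-fold threshold (glmTreat) 16 were higher in EC and 8 in CM, fewer by construction of that test. With a replicate block the counts were 43 and 34, and Cdk17, Cdk2ap2 and Cdk6 lost their calls; the numbers do not pair the libraries. Leaving out 1 library gave 40 to 44 higher in EC and 31 to 35 higher in CM; Ccna1 was then not tested without CM replicate 1 or 3. EC ATAC starts ranged from 100 to 103 over the alternatives. Starts with a GATA4 peak were 19 and 25 (Tie2-Cre, Tnnt2-Cre) with stricter peaks and 27 and 32 within 2 kb, but 3 and 2 with every list cut to the 2734 strongest peaks, and 1 to 25 and 2 to 29 when a library was left out, since the second library of each lineage lists few peaks. Over the single members, 1182 values stayed on the same side of the threshold. A further 96 were no longer past it, 55 of them in the 2-fold test, and 20 came to pass it. Among the 1182, values that passed in neither fit could change direction, as that of Cdk5r1 did without EC replicate 2.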

Other observations

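The genes that carry a cell cycle name without a place in the phase lists held some of the largest differences. Of Cdc42, a GTPase of the actin cytoskeleton, and its 10 partners, 7 were higher in EC and 4 in CM, with a median log2 difference of 0.82. Cdc42 itself was abundant and close to equal, at 386 and 397 CPM in EC and at 366, 326 and 317 CPM in CM (0.22, adjusted p = 0.025), a call lost when EC replicate 1, EC replicate 2, CM replicate 2 or CM replicate 3 was left out, or low counts were not filtered. Its effectors differed far more. Cdc42ep1 was at 64.2 and 49.9 CPM in EC and at 3.48, 4.12 and 4.49 CPM in CM (3.83, SE 0.14, adjusted p = 1.6e-09), and Cdc42ep5 at 36.8 and 35.3 CPM in EC and at 4.50, 3.91 and 4.17 CPM in CM (3.10, SE 0.11, adjusted p = 1.36e-09). Cdc42ep3 went the other way, at 6.24 and 5.39 CPM in EC and at 30.2, 29.5 and 30.6 CPM in CM (−2.37, SE 0.12, adjusted p = 1.43e-08). Of these effectors Cdc42ep5 has a Tie2-Cre-selective GATA4 region within the gene, Cdc42ep1 a shared one at 2385 bp, and Cdc42ep3 a pair of Tnnt2-Cre-selective ones at 17923 and 45224 bp. Cdc42ep2 (1.68) and Cdc42ep4 (1.65), also higher in EC, each have regions of both selective kinds. The Tnnt2-Cre-selective one of Cdc42ep2 lies 25 bp from its start.

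Among the other 14 genes tested that were taken by name only, 7 were higher in EC and 6 in CM. The splicing factor Cdc40 was at 53.8 and 58.2 CPM in EC and at 11, 14.0 and 16.3 CPM in CM (2.03, SE 0.14, adjusted p = 2.04e-07). The Hsp90 partner Cdc37 and its relative Cdc37l1 lay on opposite sides, at 273 and 267 CPM in EC against 107, 141 and 129 CPM in CM for Cdc37 (1.10) and at 41.7 and 44.0 CPM against 156, 157 and 172 CPM for Cdc37l1 (−1.92). The pseudogene Cdk3-ps stayed under 1 CPM, and its difference of −1.78 was −4.19 without EC replicate 1, −1.05 without EC replicate 2 and did not pass without CM replicate 2 (adjusted p = 0.0532).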
